A study of Mus musculus with 12 samples.

Results

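The 53 genes described here encode the enzymes that carry glucose carbon through glycolysis, the pentose phosphate pathway and the tricarboxylic acid (TCA) cycle, with the lactate transporters and the kinases and phosphatase that gate pyruvate entry. They were taken by gene name from the 54532 genes of the deposited count table. RNA sequencing was done on N9 cells, an immortalised mouse microglial line, in 4 groups of 3 libraries. All cells were kept for 18 h in a medium that held 3 mM glucose and 5 mM fructose, or in that medium with one sugar raised to, or by, 15 mM, which the labels leave unstated. The groups were fructose at 15 mM with lipopolysaccharide (LPS, a bacterial cell wall component, 1 µg/ml for 6 h), glucose at 15 mM with the same LPS, control medium with the same LPS, and control medium without LPS. Neither raised sugar was given without LPS, and no osmotic control was among the groups. A cell line in culture is a limited model of microglia in the brain, and the labels do not state whether 1 culture or several gave the libraries of a group. The p-values below therefore measure only how far libraries differ, which may be technical. In bulk RNA, fewer cells that express a gene and less RNA per cell cannot be told apart.

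Glycolysis splits glucose into pyruvate in the cytosol, and lactate dehydrogenase and the monocarboxylate transporters turn over and export the lactate made from it. The pentose phosphate pathway branches off at glucose 6-phosphate, its oxidative arm making NADPH and its non-oxidative arm passing sugars back to glycolysis or on to ribose. Pyruvate enters the mitochondria through the pyruvate dehydrogenase complex, which pyruvate dehydrogenase kinases switch off, and is oxidised in the TCA cycle. Macrophages and microglia exposed to LPS are known for a shift towards glycolysis, part of which lies in enzyme activity and not in transcript level.

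The 12 libraries held 15453776 to 17956772 counts, of which the 53 genes took 2.26 to 2.42%. Of the 54 rows that carry these gene names, 53 rows from 52 genes passed the filter on low counts. The row left out was Ldhb, the heart-type lactate dehydrogenase subunit, with 0 to 11 counts per library. Aldoa has a second, short row with 115 counts over all libraries. Among macrophage and microglia markers Csf1r had 6088 to 8027, Cd68 9453 to 11691 and Tyrobp 2368 to 4030 counts, whereas Aif1 had 2 to 9 and the microglial receptor P2ry12 1 to 6. The 12 markers of that list summed to 2043 to 2140 CPM in high-fructose LPS libraries, 1968 to 2038 in high-glucose LPS libraries, 2179 to 2242 in LPS libraries and 2188 to 2290 in control libraries. The 5 neuronal markers, nearly all of it Tubb3, summed to 29 to 32.8 CPM in high-fructose LPS libraries, 14.6 to 16.2 in high-glucose LPS libraries, 10.9 to 14.3 in LPS libraries and 3.73 to 4.57 in control libraries. The lymphocyte gene Cd3e and the endothelial gene Cldn5 were at 0 in every library, but some other listed markers were not. The endothelial gene Flt1 had 816 to 1264 counts and the astrocyte gene Aldh1l1 296 to 534. The oligodendrocyte gene Mbp had 443 to 672 counts and the fibroblast gene Col1a1 1 to 114. Each is the most counted marker of its list. Albumin (Alb), a liver gene, had 934, 0 and 8 counts in the high-fructose LPS libraries, 2, 106 and 348 in the high-glucose LPS libraries, 2, 0 and 0 in the LPS libraries and 2, 155 and 292 in the control libraries. The part of Tubb3 in the results was not tested, and the counts of changed genes without the 5 libraries of more than 50 Alb counts are given beside each result that they change.

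Gapdh, the glyceraldehyde 3-phosphate dehydrogenase gene often used as a constant reference, was listed with counts that differed strongly between libraries of the same group. The row at chr6:125161715-125166467 (GRCm38, minus strand) had 3829, 2922 and 4538 counts in high-fructose LPS libraries, 175, 227 and 211 in high-glucose LPS libraries, 2009, 185 and 3558 in LPS libraries, and 5155, 2029 and 3269 in control libraries. Within the LPS group alone the row ranged between 185 and 3558 counts. The annotation holds 41 other genes or pseudogenes that match Gapdh at 98% identity, 38 of them over at least 50% of the Gapdh transcript and 3 over at least 50% of their own, and their rows held 838% of the counts of Gapdh itself. Most of these counts stood at 1 processed copy, Gm13394 on chromosome 2 (chr2:28933610-28934609, minus strand), with 16249 to 21942 counts per library. Over the 1000 bases that align, all in the coding part of Gapdh, the 2 transcripts differ at 1 base. The 150 bases around it (transcript bases 512 to 661 of Gapdh, GENCODE M21) are shown because they hold that difference, in capitals.
Gapdh: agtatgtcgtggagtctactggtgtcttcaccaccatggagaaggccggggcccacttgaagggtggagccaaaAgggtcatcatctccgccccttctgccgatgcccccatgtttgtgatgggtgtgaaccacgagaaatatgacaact
Gm13394: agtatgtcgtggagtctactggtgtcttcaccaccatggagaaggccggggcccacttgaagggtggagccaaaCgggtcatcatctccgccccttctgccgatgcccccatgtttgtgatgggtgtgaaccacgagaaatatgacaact
With positions counted from 1 at the 5′ end of this window, the difference is A75C, Gapdh's base first. Of the 41 copies, 40 carry A there, as Gapdh does, and together had 7112 counts, whereas Gm13394 alone carries C and had 228397 counts over the 12 libraries. Summed with its copies, Gapdh had 23490, 21230 and 21308 counts in high-fructose LPS libraries, 20572, 17862 and 17443 in high-glucose LPS libraries, 22640, 20182 and 22936 in LPS libraries, and 26452, 23643 and 25858 in control libraries. Most of each sum is Gm13394, so the narrower range of the sums mainly follows that row and says little about Gapdh. Gm13394 had 20003, 19396 and 18809 counts in the LPS libraries, where Gapdh had 2009, 185 and 3558. It had 19756, 17099 and 16647 in the high-glucose LPS libraries. Whether reads moved between these rows was not tested.

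**Figure D1:**
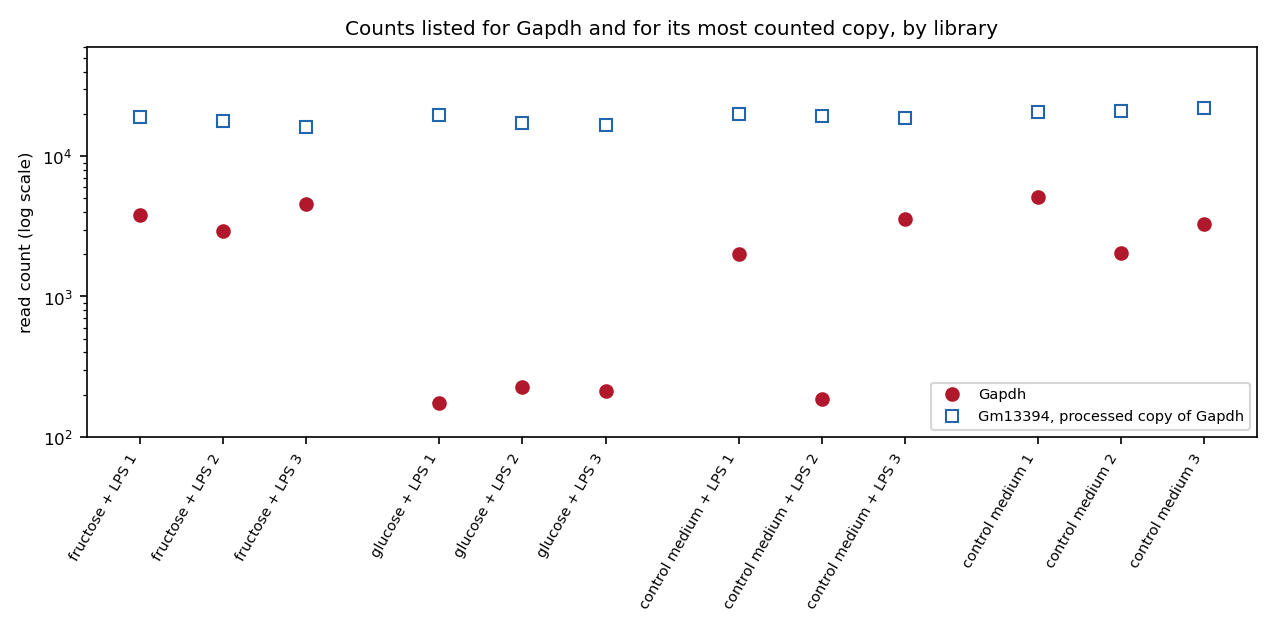
Read counts (log axis) listed for Gapdh (filled circles) and for its most counted processed copy Gm13394 (open squares) in each of the 12 libraries, 3 per group. Gapdh stands at 175 to 227 counts in all 3 high-glucose LPS libraries and at 185 in 1 LPS library, and at 2009 to 5155 in the other libraries, while Gm13394 stays between 16249 and 21942.

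For 5 further members at least 50% of the main transcript is matched elsewhere at that identity. Eno1, the main enolase, had 374158 counts, and its copies Eno1b and Gm4735 had 126452 and 105482, or 62.0% of its own. For Pgk1, Pkm and Me1 the copies held 0.432, 0.791 and 1.88% of the gene's counts, and for Ldhb none. Gpi1, Pgam1 and Suclg2 each have a shorter match that counts as a copy, whose counts were 0.178, 0.886 and 7.93% of the gene's own. Exons of Rpe (17.9% of bases), Pdha1 (16.2%), G6pdx (13.6%), Gpi1 (11.5%) and Pfkp (5.58%) lie over a gene read in the opposite direction, and reads of such pairs cannot be told apart unless counting used strand, which is not stated.

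A few glycolytic genes stood far above the rest on the deposited FPKM scale. FPKM divides by the summed exon length of a gene, which was 0.931 to 4.22 times the length of its main annotated transcript, so the order of genes can depend on the length used. Levels between genes are therefore also given as CPM per kilobase of main transcript where the order matters. Pkm, the pyruvate kinase of non-liver tissues, averaged 850 ± 25.1 FPKM in high-fructose LPS cells, 845 ± 21.1 in high-glucose LPS cells, 801 ± 11.9 in LPS cells and 783 ± 6.94 in control cells (SD, n = 3 each). Ldha, the muscle-type lactate dehydrogenase subunit, averaged 787 ± 42.0 FPKM in high-fructose LPS cells, 802 ± 34.3 in high-glucose LPS cells, 766 ± 13.2 in LPS cells and 665 ± 21.1 in control cells. Aldoa, the ubiquitous aldolase, averaged 703 ± 12.2 FPKM in high-fructose LPS cells, 684 ± 15.4 in high-glucose LPS cells, 683 ± 11.9 in LPS cells and 661 ± 7.94 in control cells. In LPS cells Pkm, Ldha and Aldoa had 1655 ± 25.2, 1442 ± 25.0 and 1322 ± 22.5 CPM per kilobase of main transcript, the same order, and the 3 were apart by more than their SD on both scales. Pgam1 (phosphoglycerate mutase) was at 601 ± 16.2 and Pgk1 (phosphoglycerate kinase) at 534 ± 12 FPKM in LPS cells. Per kilobase of main transcript Pgam1 had 623 ± 16.5 and Pgk1 660 ± 14.6 CPM, so their order turned with the length. Pfkl, the liver-type phosphofructokinase, was at 14.4 ± 0.585 FPKM in LPS cells, far below all of these. Among the 12 members of the TCA cycle, Mdh2 (malate dehydrogenase) and Cs (citrate synthase) were highest in LPS cells, at 236 ± 10.02 and 106 ± 0.918 FPKM. Suclg2 (a succinyl-CoA ligase subunit) was lowest among them, at 20.7 ± 1.80 FPKM. These 3 held the same places per kilobase of main transcript, with 579 ± 24.3, 210 ± 1.85 and 28.6 ± 2.50 CPM. Eno1 and Gapdh are not placed in the glycolytic order above, since their copies held 62.0% and 838% of their own counts. Eno1's own row was at 346 ± 11.1 FPKM and 922.5 ± 29.0 CPM per kilobase of main transcript in LPS cells. With its copies Eno1 had 3105, 3059 and 2940 CPM in LPS libraries, beside a mean of 1870 CPM for its own row.

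Among isozymes, Ldhb averaged 0.0529, 0.142, 0 and 0.0121 FPKM in high-fructose LPS, high-glucose LPS, LPS and control cells, far below Ldha. Aldoc, the brain-type aldolase, averaged 29.8 ± 0.878 FPKM in LPS cells and 33.8 ± 0.723 in control cells. Eno2, the neuronal enolase, averaged 5.82 ± 0.921 FPKM in LPS cells and 5.79 ± 0.930 in control cells. Phosphofructokinase, the committed step of glycolysis, has 3 genes. In control cells Pfkp, Pfkm and Pfkl stood at 17.9 ± 0.326, 15.8 ± 0.27 and 15.4 ± 0.818 FPKM, with Pfkm and Pfkl within their spread on that scale. In LPS cells Pfkp, Pfkl and Pfkm stood at 19.9 ± 1.02, 14.4 ± 0.585 and 12.6 ± 0.274 FPKM, and the 3 levels were apart. Pfkp's summed exons span 13401 bases and its main transcript 4145, and per kilobase of main transcript Pfkp, Pfkl and Pfkm had 64.6 ± 3.30, 25.9 ± 1.04 and 14.7 ± 0.321 CPM in LPS cells and 58.3 ± 1.03, 27.6 ± 1.48 and 18.4 ± 0.311 in control cells. Pfkp was thus highest with either length, but by how much depended on it. Of the pyruvate dehydrogenase kinases, Pdk3 and Pdk1 averaged 11.7 ± 0.980 and 9.17 ± 0.546 FPKM in LPS cells and 12.2 ± 1.03 and 11.7 ± 0.193 in control cells, and no order is read between them. Pdk2 averaged 0.350 ± 0.0772 FPKM in LPS cells and 0.486 ± 0.0745 in control cells.

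**Figure D2:**
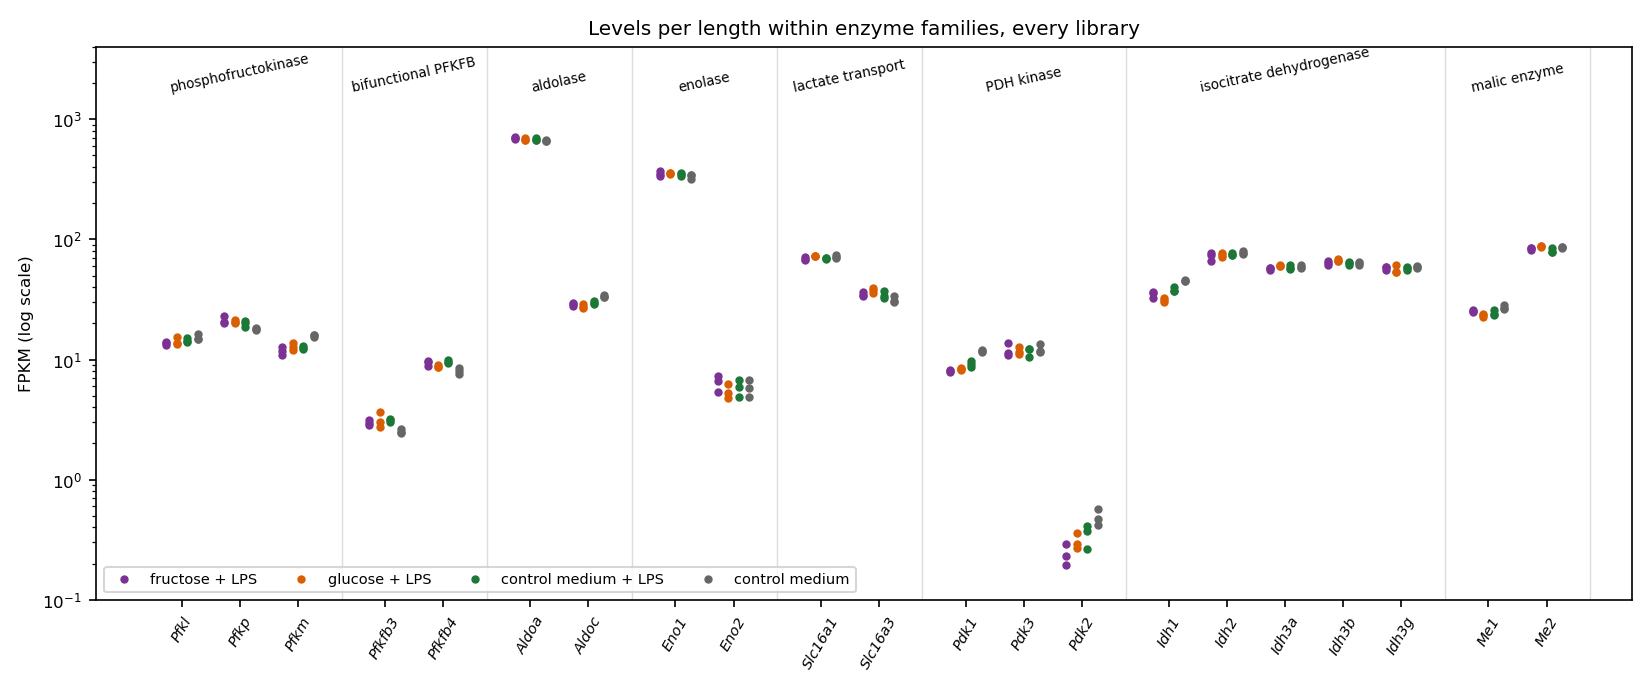
FPKM (log axis) of the members of 8 enzyme families in every library, coloured by group, with high-fructose LPS, high-glucose LPS, LPS and control libraries from left to right for each gene. Aldoa and Eno1 lie far above Aldoc and Eno2 and Pdk2 lies below 1 FPKM, while the small gaps between the phosphofructokinase genes depend on the summed exon length that FPKM uses.

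LPS in control medium moved 10 of the 53 tested rows past an adjusted p of 0.05 (edgeR quasi-likelihood test, Benjamini-Hochberg adjustment over 12766 genes), or 18.9%, beside 28.8% of all genes tested. Of these, 4 rose and 6 fell, beside 15.2% and 13.6% of all genes. Ldha, Pfkp, Pfkfb3 and Pfkfb4, which serve the phosphofructokinase step and lactate formation, rose, and Pfkm, Aldoc, Tkt, Pdk1, Idh1 and Me1 fell. All changes were small, with the strongest, in Pdk1, at -0.36 on the log2 scale. The median log2 change was -0.04 over the members and -0.0040 over all genes tested, and its median size was 0.07 over the members and 0.18 over all genes. The groups of 3 did not overlap for 19 rows (35.8%), beside 44.3% of all genes tested. For 33 of the 53 rows the 95% interval of the change lay within 0.25 of 0, beside 2960 of the 12766 genes tested. The median half-width of the interval was 0.11 for the members and 0.20 for all genes, so this count partly reflects narrower intervals.

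**Figure D3:**
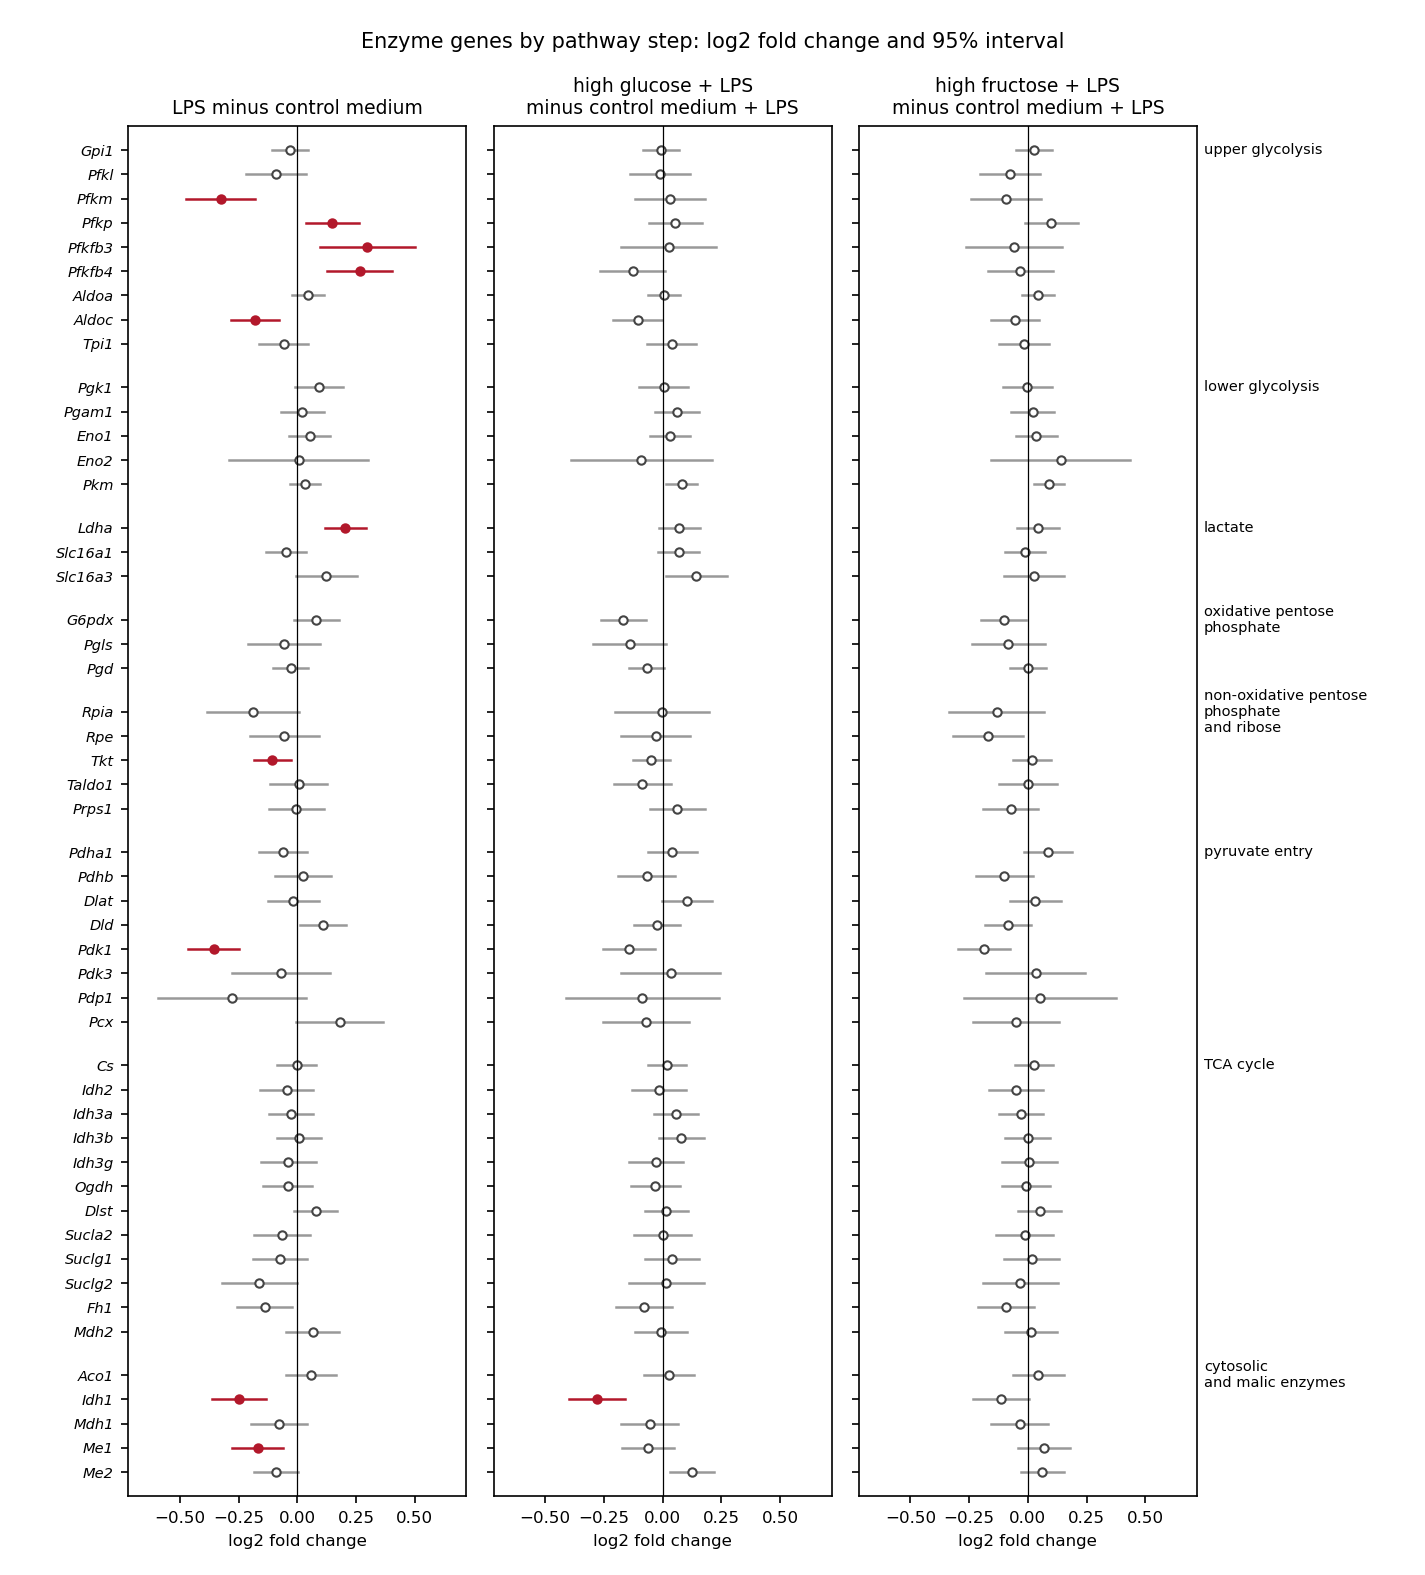
Log2 fold change (x axis) and 95% interval for each member row by pathway step, for LPS minus control medium, high glucose with LPS minus LPS, and high fructose with LPS minus LPS; filled red marks are changes with an adjusted p below 0.05. Gapdh, Pdk2 and the second Aldoa row, whose intervals exceed the axis, and Ldhb, not tested, are not drawn; red marks appear on 10 rows for LPS, on 1 drawn row (Idh1) for high glucose and on none for high fructose.

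In upper glycolysis 3 of 10 rows rose and 2 fell. Pfkfb3 (chr2:11471433-11554077), which makes the strongest activator of phosphofructokinase and is known as inducible by inflammatory signals, had 24.1, 22.9 and 23.9 CPM in LPS libraries, against 19.0, 20.0 and 18.7 CPM in control libraries. All LPS libraries were above all control libraries, and the log2 change was 0.30 (SE 0.10, adjusted p = 0.0273). Pfkfb4 (chr9:108991778-109032228), its paralog, had 47.0, 48.6 and 45.8 CPM in LPS libraries, against 36.8, 41.2 and 39.5 CPM in control libraries. It rose by 0.27 (SE 0.07, adjusted p = 0.00465), again without overlap. Pfkp (chr13:6579768-6648777), the platelet-type phosphofructokinase, had 253, 280 and 270 CPM in LPS libraries, against 245, 244 and 237 CPM in control libraries, a log2 change of 0.15 (SE 0.05, adjusted p = 0.0468). This call and that of Pfkfb3 are near the threshold, and both were lost when library totals or upper-quartile factors replaced TMM scaling. Pfkm (chr15:98092589-98132451), the muscle-type enzyme, had 43.1, 41.2 and 42.2 CPM in LPS libraries, against 51.9, 53.4 and 53.5 CPM in control libraries, and fell by 0.33 on the log2 scale (SE 0.07, adjusted p = 0.00132). Aldoc (chr11:78322968-78327781) had 96.3, 101 and 95.7 CPM in LPS libraries, against 110, 113 and 109 CPM in control libraries, and fell by 0.18 (SE 0.05, adjusted p = 0.00816). Pfkl had a log2 change of -0.09 (95% interval -0.22 to 0.04).

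**Figure D4:**
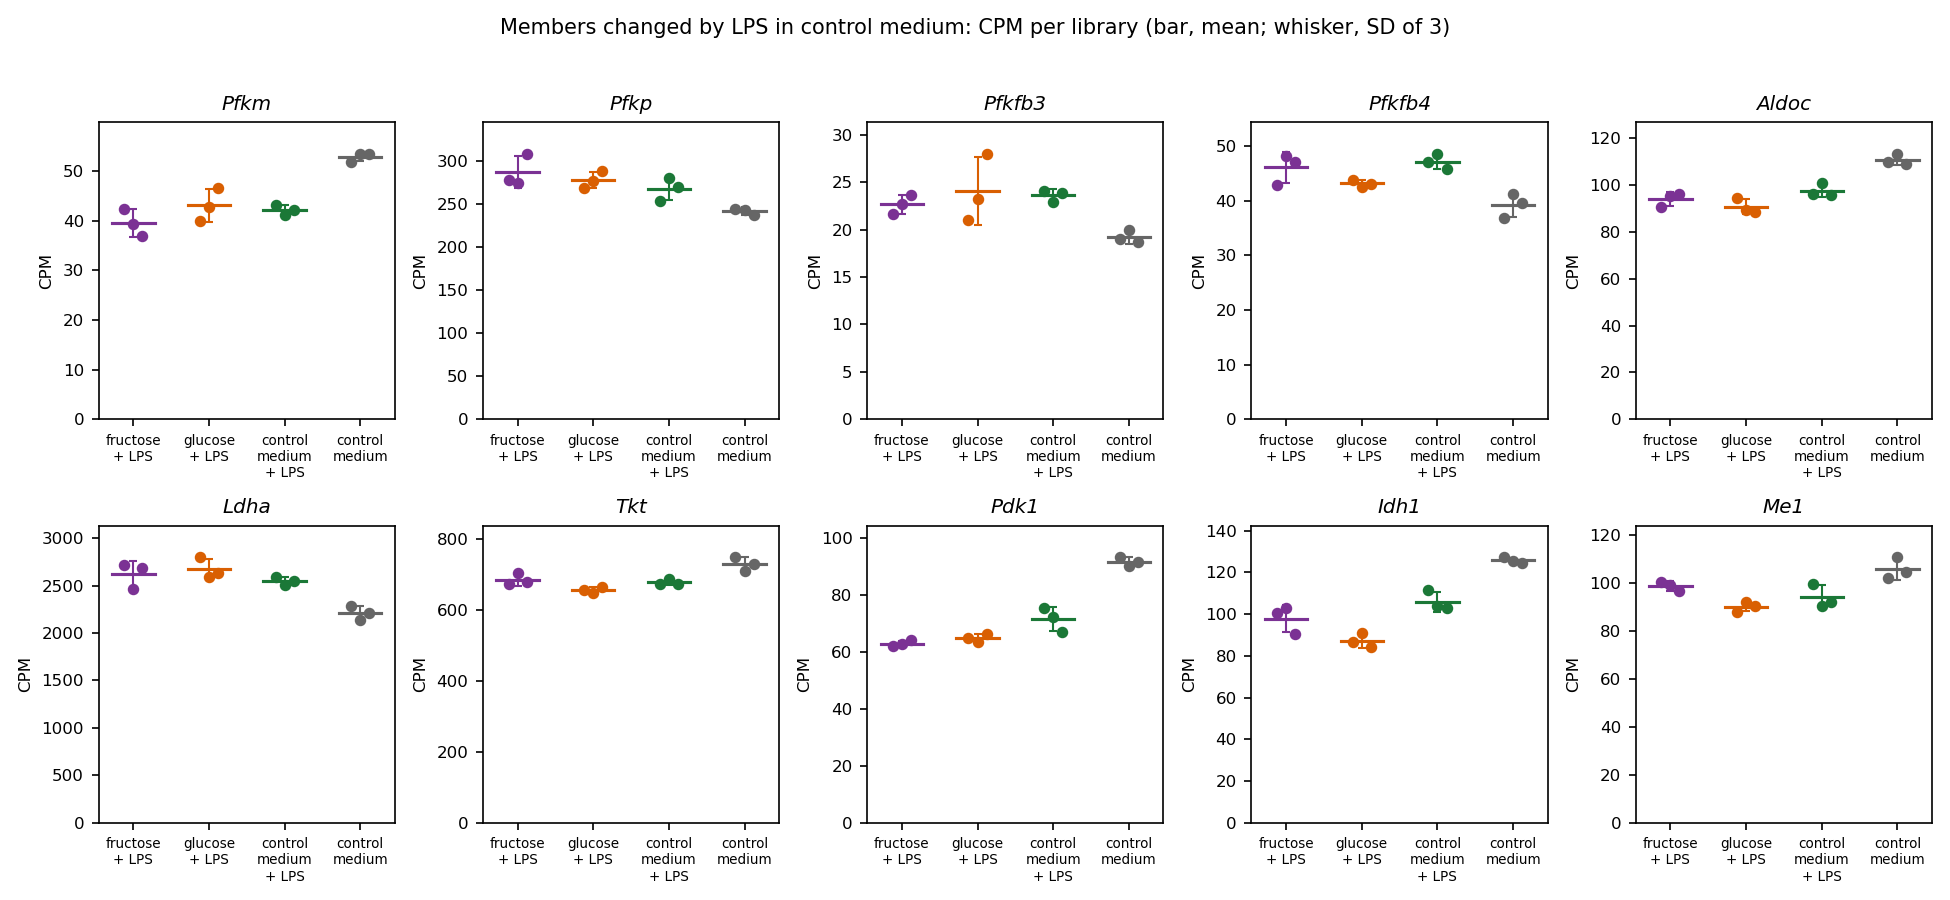
CPM (from 0) in each library for the 10 members changed by LPS in control medium, with points for the 3 libraries, a bar at the mean and a whisker for the SD, from left to right high-fructose LPS, high-glucose LPS, LPS and control. The LPS and control libraries of each of these genes do not overlap, Pdk1 standing at 67.2 to 75.6 CPM with LPS and 90.1 to 93.3 CPM without.

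In lower glycolysis none of 6 rows passed the test, with 0 at an unadjusted p below 0.05, beside 4836 of the 12766 genes tested. DESeq2 also called none of these rows. Pgk1 had 1235, 1191 and 1187 CPM in LPS libraries, against 1214, 1063 and 1108 CPM in control libraries, a log2 change of 0.09 (95% interval -0.0098 to 0.20). Pkm had 3955, 4052 and 4068 CPM in LPS libraries, against 3975, 3905 and 3924 CPM in control libraries. Its log2 change was 0.03 (95% interval -0.03 to 0.10). Gapdh's own row had a log2 change of -0.74 (SE 0.53, adjusted p = 0.335), and the sum with its copies had -0.08 (SE 0.07, adjusted p = 0.394).

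At the lactate step Ldha (chr7:46841475-46855627) rose. It had 2591, 2503 and 2547 CPM in LPS libraries, against 2280, 2137 and 2216 CPM in control libraries. No libraries overlapped, and the log2 change was 0.20 (SE 0.04, adjusted p = 0.00106). Slc16a3, the lactate exporter MCT4, had 174, 198 and 179 CPM in LPS libraries, against 182, 163 and 161 CPM in control libraries, with overlap (log2 change 0.12, adjusted p = 0.148). Slc16a1, the transporter MCT1, had a log2 change of -0.05 (adjusted p = 0.403).

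In the pentose phosphate pathway 1 of 8 rows fell. G6pdx, glucose 6-phosphate dehydrogenase and the entry to the oxidative arm, had 290, 288 and 283 CPM in LPS libraries, against 259, 271 and 284 CPM in control libraries, a log2 change of 0.08 (95% interval -0.01 to 0.18). Pgd, phosphogluconate dehydrogenase, had a log2 change of -0.03 (95% interval -0.10 to 0.05). Tkt (chr14:30548359-30574720), the transketolase of the non-oxidative arm, had 673, 687 and 672 CPM in LPS libraries, against 748, 710 and 730 CPM in control libraries. The groups did not overlap, and the change of -0.11 (SE 0.04, adjusted p = 0.0431) was near the threshold. Rpia (ribose phosphate isomerase) also did not overlap, at 19.4 to 20.5 CPM in LPS libraries and 20.8 to 24.8 CPM in control libraries, but did not pass the test (log2 change -0.19, adjusted p = 0.144).

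At pyruvate entry 1 of 9 rows fell. Pdk1 (chr2:71873224-71903858), a kinase that inactivates pyruvate dehydrogenase, had 75.6, 72.1 and 67.2 CPM in LPS libraries, against 93.3, 90.1 and 91.7 CPM in control libraries. Every LPS library was below every control library, and the log2 change was -0.36 (SE 0.05, adjusted p = 3.5e-05). The subunits of the complex itself did not pass the test, with log2 changes of -0.06 for Pdha1, 0.02 for Pdhb, -0.02 for Dlat and 0.11 for Dld (adjusted p = 0.0921 for Dld). Pcx (pyruvate carboxylase, which feeds oxaloacetate to the cycle) had 41.3, 39.7 and 40.0 CPM in LPS libraries, against 34.5, 34.1 and 38.2 CPM in control libraries, a log2 change of 0.18 (SE 0.09, adjusted p = 0.14).

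None of the 12 TCA cycle rows passed the test, and DESeq2 called none of them. An unadjusted p below 0.05 was seen in 2, beside 4836 of the 12766 genes tested. The 2 were Fh1 (fumarate hydratase), with a log2 change of -0.14 (adjusted p = 0.0741), and Suclg2, with -0.16 (adjusted p = 0.124). Cs had 609, 619 and 617 CPM in LPS libraries, against 608, 625 and 616 CPM in control libraries, and a log2 change of -0.0036 (95% interval -0.08 to 0.08). Idh2, the mitochondrial NADP isocitrate dehydrogenase, had a log2 change of -0.05 (95% interval -0.16 to 0.07), and Ogdh, of the oxoglutarate dehydrogenase complex, had -0.04 (95% interval -0.14 to 0.06). The interval lay within 0.25 of 0 for 10 of the 12 rows. Of the 5 rows of cytosolic and malic enzymes, 2 fell, both NADPH-producing enzymes. G6pdx, Pgd and Idh2, members that also make NADPH, did not pass the test. Idh1 (chr1:65158616-65186500), the cytosolic NADP isocitrate dehydrogenase, had 111, 104 and 103 CPM in LPS libraries, against 127, 126 and 125 CPM in control libraries, and fell by 0.25 (SE 0.06, adjusted p = 0.00209). Me1 (chr9:86581371-86695953), the cytosolic malic enzyme, had 99.8, 90.6 and 92.1 CPM in LPS libraries, against 102, 111 and 105 CPM in control libraries, and fell by 0.17 (SE 0.05, adjusted p = 0.020). In both genes no LPS library reached the control libraries.

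Pfkfb4, Pfkm, Aldoc, Ldha, Pdk1 and Idh1 were called under all 17 alternatives planned, and Pfkp, Pfkfb3, Tkt and Me1 were not. Pfkp was lost without LPS 2, LPS 3 or any of the 3 control libraries (adjusted p = 0.0247 to 0.194 over the fits that leave out a library). Pfkfb3 was lost without LPS 1, LPS 3, control 1 or control 3 (adjusted p = 0.0441 to 0.0953). Tkt was lost without any of the 3 LPS libraries, control 1 or control 3 (adjusted p = 0.0405 to 0.131), and Me1 without LPS 2, LPS 3 or control 2 (adjusted p = 0.01 to 0.102). Without the 5 libraries of more than 50 Alb counts, which leaves 1 control library that is assumed to vary like the other groups, 4 rows were called, of which Pfkfb4, Pdk1 and Idh1 were among the 10. With library totals in place of TMM factors the median of all genes moved by -0.09, and the calls became 2 higher and 21 lower among the members, beside 1412 higher and 2951 lower among all genes. Upper-quartile factors gave 2 higher and 9 lower among the members, beside 1622 and 2292 among all genes.

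High glucose under LPS, set against LPS in control medium, lowered 2 of 53 rows (3.77%, beside 1.56% of all genes tested, 0.971% lower and 0.587% higher) and raised none. They were Idh1 and the Gapdh row, and no other member passed the test. The groups did not overlap for 12 rows (22.6%), beside 19.2% of all genes tested. Idh1 had 86.6, 91.0 and 84.3 CPM in high-glucose LPS libraries, against 111, 104 and 103 CPM in LPS libraries. The groups did not overlap, and it fell by 0.28 (SE 0.06, adjusted p = 0.0173). The call was lost in 4 of the 6 fits that each leave out a library (adjusted p = 0.0218 to 0.104), namely LPS 1, LPS 2, high-glucose LPS 1 and high-glucose LPS 3, and in limma on log2 FPKM. Gapdh's own row had 10.7, 13.9 and 13.5 CPM in high-glucose LPS libraries, against 125, 11 and 212 CPM in LPS libraries, which overlap. Its log2 change was -3.19 (SE 0.66, adjusted p = 0.0199), a call lost in 5 of the 6 fits that each leave out a library (all but that without LPS 2, adjusted p = 0.000165 to 0.117), and that of the sum with its copies was -0.20 (SE 0.07, adjusted p = 0.166). Without the libraries of more than 50 Alb counts, which leaves 1 high-glucose LPS library, no member was called.

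The next strongest was G6pdx, with 249, 262 and 256 CPM in high-glucose LPS libraries, against 290, 288 and 283 CPM in LPS libraries. The groups did not overlap, but the log2 change of -0.17 (SE 0.05) had an adjusted p of 0.0814. DESeq2 called it, and its p over the alternatives was 0.0167 to 0.293. The other oxidative arm rows had log2 changes of -0.14 for Pgls (phosphogluconolactonase) and -0.07 for Pgd. Pdk1 had 64.9, 63.5 and 66.2 CPM in high-glucose LPS libraries, against 75.6, 72.1 and 67.2 CPM in LPS libraries (log2 change -0.14, adjusted p = 0.227). Slc16a3 had 212, 193 and 204 CPM in high-glucose LPS libraries, against 174, 198 and 179 CPM in LPS libraries, with overlap (log2 change 0.14, adjusted p = 0.296). Pkm had 4345, 4141 and 4282 CPM in high-glucose LPS libraries, against 3955, 4052 and 4068 CPM in LPS libraries, without overlap but short of the threshold (log2 change 0.08, adjusted p = 0.237).

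For the rest of the genes described in each comparison, the log2 changes with high glucose were -0.01 for Pfkl, 0.05 for Pfkp, 0.03 for Pfkfb3, 0.0044 for Pgk1, 0.07 for Ldha, -0.05 for Tkt, 0.02 for Cs, -0.02 for Idh2, -0.03 for Ogdh, -0.06 for Me1 and -0.07 for Pcx. None of these passed the test, with adjusted p from 0.485 to 0.985. The 95% interval lay within 0.25 of 0 for 41 of the 53 rows, among them all 12 of the TCA cycle, beside 4701 of the 12766 genes tested. Its median half-width was 0.11 for the members and 0.20 for all genes, so this count too partly reflects narrower intervals.

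High fructose under LPS, set against the same LPS libraries, moved none of the 53 rows past the threshold, beside 4.91% of all genes tested, 2.37% higher and 2.55% lower (edgeR). The groups did not overlap for 7 rows (13.2%), beside 20.4% of all genes tested. At an unadjusted p below 0.05 there were 4 rows, beside 1984 of the 12766 genes tested. They were Pdk1, Pkm, Rpe and G6pdx, and DESeq2 called no member. Pdk1 was nearest to the threshold, with 62.1, 62.7 and 64.1 CPM in high-fructose LPS libraries, against 75.6, 72.1 and 67.2 CPM in LPS libraries. All high-fructose LPS libraries were lower, and the log2 change was -0.19 (SE 0.05, adjusted p = 0.0538). It passed in 5 alternatives, among them the fit without LPS 3, and its p over all of them was 0.0277 to 0.24. Pkm had 4309, 4143 and 4388 CPM in high-fructose LPS libraries, against 3955, 4052 and 4068 CPM in LPS libraries, again without overlap (log2 change 0.09, SE 0.03, adjusted p = 0.129). Rpe (ribulose phosphate epimerase) had 47.0, 46.7 and 45.6 CPM in high-fructose LPS libraries, against 53.7, 54.0 and 49.2 CPM in LPS libraries (log2 change -0.17, adjusted p = 0.235). G6pdx had 274, 267 and 261 CPM in high-fructose LPS libraries, against 290, 288 and 283 CPM in LPS libraries (log2 change -0.10, adjusted p = 0.274).

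The first enzymes below phosphofructokinase, where fructose carbon can join glycolysis, did not pass the test. Aldoa had a log2 change of 0.04 (95% interval -0.02 to 0.11), and Tpi1 (triose phosphate isomerase) had -0.02 (95% interval -0.12 to 0.09). For the remaining genes described in each comparison the log2 changes were -0.08 for Pfkl, 0.10 for Pfkp, -0.06 for Pfkfb3, 1.04 for the Gapdh row, -0.0018 for Pgk1, 0.04 for Ldha, 0.03 for Slc16a3, 0.00032 for Pgd, 0.02 for Tkt, 0.03 for Cs, -0.11 for Idh1, -0.05 for Idh2, -0.0089 for Ogdh, 0.07 for Me1 and -0.05 for Pcx. Summed with its copies, Gapdh had a log2 change of 0.07 (adjusted p = 0.716). The interval lay within 0.25 of 0 for 44 of the 53 rows, among them all 12 of the TCA cycle, beside 4656 of the 12766 genes tested. Here too the members had narrower intervals, with a median half-width of 0.11, beside 0.20 for all genes.

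Set against each other under LPS, high fructose and high glucose differed in 1 of 53 rows (1.89%, beside 3.72% of all genes tested, 1.84% higher and 1.88% lower), and that was the Gapdh row. The groups did not overlap for 11 rows (20.8%), beside 17.9% of all genes tested. It had 236, 181 and 298 CPM in high-fructose LPS libraries, against 10.7, 13.9 and 13.5 CPM in high-glucose LPS libraries, a log2 difference of 4.23 (SE 0.66, adjusted p = 0.000922). Summed with its copies, Gapdh had 1449, 1317 and 1401 CPM in high-fructose LPS libraries, against 1258, 1096 and 1112 CPM in high-glucose LPS libraries. The difference of the sums was 0.27 (SE 0.07, adjusted p = 0.0283). It was thus far smaller but still past the threshold. The sum includes the Gapdh row itself, so it is not a separate check of that row. Gm13394, most of each sum, had 19016, 17754 and 16249 counts in high-fructose LPS libraries. It had 19756, 17099 and 16647 counts in high-glucose LPS libraries, with overlap. Without the libraries of more than 50 Alb counts, which leaves 1 high-glucose LPS library, no member was called.

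Idh1, called lower in high glucose and not in high fructose, did not pass the direct test of the 2 sugars. It had 100, 103 and 90.4 CPM in high-fructose LPS libraries, against 86.6, 91.0 and 84.3 CPM in high-glucose LPS libraries (log2 difference 0.16, SE 0.06, adjusted p = 0.133). Me1 had 101, 99.0 and 96.7 CPM in high-fructose LPS libraries, against 88.1, 92.1 and 90.5 CPM in high-glucose LPS libraries, without overlap (log2 difference 0.13, adjusted p = 0.214). The other genes described in each comparison had log2 differences of -0.07 for Pfkl, 0.05 for Pfkp, -0.08 for Pfkfb3, -0.0062 for Pgk1, 0.0081 for Pkm, -0.03 for Ldha, -0.12 for Slc16a3, 0.06 for G6pdx, 0.07 for Pgd, 0.06 for Tkt, -0.04 for Pdk1, 0.01 for Cs, -0.04 for Idh2, 0.02 for Ogdh and 0.02 for Pcx, none past the test. The interval lay within 0.25 of 0 for 42 of the 53 rows, beside 4481 of the 12766 genes tested. Again the median half-width was 0.11 for the members and 0.20 for all genes. The 2 sugar comparisons above share their LPS control libraries, so likeness between them is not given as a result.

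Beside the members, 50 further genes of these pathways were examined, such as hexokinases, other isozymes and carriers, of which 39 rows were tested. With LPS in control medium 6 of them rose and 7 fell (33.3%, beside 28.8% of all genes tested). Hk1, Hk2 and Hk3, hexokinases that phosphorylate glucose on entry, rose. Hk2 had 132, 150 and 147 CPM in LPS libraries, against 81.5, 90.0 and 88.7 CPM in control libraries (log2 change 0.72, SE 0.08). Hk1 had 366, 369 and 369 CPM in LPS libraries, against 264, 294 and 279 CPM in control libraries (log2 change 0.40), and Hk3 had a change of 0.35. Acly, the cytosolic citrate lyase, rose by 0.31, Prps2 (ribose phosphate pyrophosphokinase) fell by 0.49 and Slc25a10 (the mitochondrial dicarboxylate carrier) fell by 0.44, all without overlap between groups. Without the 5 libraries of more than 50 Alb counts 9 of the 13 were called, 4 higher and 5 lower.

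High glucose changed none of these 39 rows at an adjusted p below 0.05 (edgeR), and DESeq2 called 1. Of the 39 rows, 6 had an unadjusted p below 0.05, beside 1780 of the 12766 genes tested. High fructose changed 3 (7.69%, beside 4.91% of all genes tested). Acly had 627, 661 and 620 CPM in high-fructose LPS libraries, against 508, 536 and 535 CPM in LPS libraries (log2 change 0.27, adjusted p = 0.00114). Hk1 had 404, 439 and 420 CPM in high-fructose LPS libraries, against 366, 369 and 369 CPM in LPS libraries (log2 change 0.19, adjusted p = 0.0339). The phosphoglucomutase row that the table names Pgm2 had 42.4, 40.6 and 41.7 CPM in high-fructose LPS libraries, against 49.7, 56.6 and 52.8 CPM in LPS libraries (log2 change -0.35, adjusted p = 0.00212). Between high fructose and high glucose none of the 39 rows passed the test (edgeR), and DESeq2 called 1. Here 4 had an unadjusted p below 0.05, beside 1995 of the 12766 genes tested.

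Promoters were read for 50 of the 53 members from RefSeq (GRCm38.p6) as the 250 bases before the start. For each member the listed start nearest the GENCODE start of its main transcript was used. It lay 314 bases away for G6pdx, the farthest. On either strand ACGTG, the core of the hypoxia response element, stood in 14 of 50 (28%), beside 16.6% of all 32851 promoters. Those 32851 hold every listed start, several for some genes, against 1 start per member, so the shares are not strictly alike. The E-box CACGTG, each copy of which also holds ACGTG on both strands, stood in 4 of 50 (8%), beside 6.02% of all. A single fixed spelling of an NF-kB site, matched letter for letter, stood in none, beside 0.14% of all. Other spellings of this site were not searched, so its absence from these promoters is not shown. The cyclic AMP response element TGACGTCA stood in 2 of 50 (4%), beside 1.55% of all. Of the members that LPS changed, ACGTG stood in 1 of 4 that rose (Pfkfb3) and in 1 of 6 that fell (Pfkm). The promoters of Pfkfb3 and Ldha, which rose, and of Pdk1, which fell most, are shown with these motifs in capitals, at chr2:11502091-11502340 (minus strand), chr7:46846832-46847081 (plus strand) and chr2:71872974-71873223 (plus strand). Ldha has a second RefSeq start upstream, whose promoter is at chr7:46845554-46845803 (plus strand). Pfkfb3 and Pdk1 also have 2 listed starts each, and the promoters of their other starts are not shown or counted.
Pfkfb3: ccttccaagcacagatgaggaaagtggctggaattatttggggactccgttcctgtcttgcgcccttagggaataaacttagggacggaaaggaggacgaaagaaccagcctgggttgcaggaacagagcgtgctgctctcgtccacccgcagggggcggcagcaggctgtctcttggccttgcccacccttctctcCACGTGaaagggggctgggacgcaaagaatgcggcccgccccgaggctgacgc
Ldha: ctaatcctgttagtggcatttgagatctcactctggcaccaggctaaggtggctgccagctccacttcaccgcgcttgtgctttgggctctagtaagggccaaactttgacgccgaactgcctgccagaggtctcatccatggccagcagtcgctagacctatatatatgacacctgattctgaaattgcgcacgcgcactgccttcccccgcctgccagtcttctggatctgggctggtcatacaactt
Ldha, other start: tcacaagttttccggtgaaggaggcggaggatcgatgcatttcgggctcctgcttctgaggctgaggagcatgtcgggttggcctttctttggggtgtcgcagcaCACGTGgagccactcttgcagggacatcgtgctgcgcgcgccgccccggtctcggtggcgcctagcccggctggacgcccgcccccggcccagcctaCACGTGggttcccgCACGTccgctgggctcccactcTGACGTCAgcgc
Pdk1: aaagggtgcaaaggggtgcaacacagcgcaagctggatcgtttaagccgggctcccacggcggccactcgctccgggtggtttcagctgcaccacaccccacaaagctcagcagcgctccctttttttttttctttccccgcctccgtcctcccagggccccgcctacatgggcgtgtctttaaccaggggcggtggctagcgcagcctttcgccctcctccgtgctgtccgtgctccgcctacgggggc
The Pfkfb3 promoter holds 1 E-box. The first Ldha promoter and the Pdk1 promoter hold none of the 4 motifs, and the promoter of the other Ldha start holds 2 E-boxes, 1 further ACGTG read on the minus strand, and 1 TGACGTCA. A match is a run of letters and not a shown binding site.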

How the data were processed

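RNA from 12 N9 libraries had been sequenced by the authors. Their deposited count table gives whole-read counts per gene from featureCounts 1.5.0-p3 on mm10, per the submitters' processing notes. The deposited FPKM values equal those counts per gene length and library total. No source used here gives the aligner, the annotation release or the strand setting. Counts of 12766 genes that passed filterByExpr (minimum 10) were scaled by TMM and fitted with edgeR 4.0.16 in R 4.3.3, as 1 coefficient per group over all 12 libraries, with Benjamini-Hochberg adjustment at 0.05. CPM values use the TMM-scaled library sizes. Alternatives used DESeq2 1.42.0 and limma 3.58.1 on log2 FPKM with pseudocounts of 1 and 0.1. The tests were tried on simulated counts. Near-identical copies were searched with BLAST 2.17.0+ in GENCODE M21 transcripts, and 52 of the 54 rows had the same coordinates there. No 2 libraries of a group agreed within sampling noise (chi-square per degree of freedom 3.47 to 9.26). The members and gene lists were chosen with earlier results of these data known. In each comparison every called member, 18 members described throughout and up to 6 called neighbouring genes are named, and any other gene named was chosen after its values were seen. Library depth limits low rows such as Pdk2.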

Additional observations from a re-analysis of the deposited data

Results flagged for a closer look

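The effects of the 2 sugars under LPS differed for Gapdh's own row. High fructose minus high glucose was 4.23 on the log2 scale (SE 0.66, adjusted p = 0.000922, edgeR), with 236, 181 and 298 CPM in high-fructose LPS libraries and 10.7, 13.9 and 13.5 CPM in high-glucose LPS libraries, so that all 3 high-fructose libraries were higher. Because the sugars share their LPS libraries, this direct comparison is the test of the difference. The counts of Gapdh with its 41 copies, a sum that includes the single row, differed by 0.27 (SE 0.07, adjusted p = 0.0283, edgeR). The most counted copy, Gm13394, had 19016, 17754 and 16249 counts with high fructose and 19756, 17099 and 16647 with high glucose, which overlap. The part that the copies take in the difference of the single row was not tested.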

How the results depend on the processing

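The 13 calls among the members kept their sign under every alternative, and in 178 of 234 cases stayed past the threshold. With LPS, the called members numbered 10; the count became 23 with library totals alone, 4 without the libraries of more than 50 Alb counts (an alternative chosen after seeing the data), and 6 (without LPS 3) to 9 with each library left out. With high glucose (2 called) it became 0 in all 3 limma fits on log2 FPKM (pseudocount 1, pseudocount 0.1, and no filter), 1 when members were summed with their copies, 0 without the libraries of more than 50 Alb counts, and 0 to 1 with each library left out. With high fructose (0 called) it became 1 with RLE factors, 1 with library totals alone, 1 with no filter on counts, 1 in the limma fit with no filter, and 0 to 1 with each library left out (1 without LPS 3). Between the sugars (1 called) it became 0 in the limma fit with no filter and 0 without the libraries of more than 50 Alb counts. Among neighbouring genes, DESeq2 called 1 and the unfiltered fit 1 with high glucose, where edgeR called 0, the unfiltered fit called 5 with high fructose in place of 3, and DESeq2 called 1 between the sugars in place of 0. The cause of these shifts was not tested.

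The deviations of libraries with the same replicate number had correlations of -0.19 to 0.24, with 5 of 18 pairs over 0.1. Those of libraries with different numbers had correlations of -0.23 to 0.19. The median correlation was 0.018 for pairs with the same number and -0.0056 for pairs with different numbers. The labels do not say that the numbers mark a batch, so they are not taken as pairs in the main fit. Some shared deviation is not excluded. With a replicate block the called members were 13 with LPS, 3 with high glucose, 2 with high fructose (Pdk1 and Pkm) and 1 between the sugars, and the called neighbouring genes were 14, 1, 3 and 1 in these comparisons.

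Of the 62 values of the members described in each comparison that did not pass the test, 26 changed sign somewhere, and none of these signs is read as a direction. Without the libraries of more than 50 Alb counts the log2 changes were -0.0091 for Pgk1, 0.019 for Cs and 0.016 for Ogdh with LPS, -0.17 for Pfkfb3, -0.013 for Cs and 0.031 for Idh2 with high glucose, 0.022 for Ogdh with high fructose, and 0.14 for Pfkfb3 and -0.034 for Pkm between the sugars. Upper-quartile factors gave -0.015 for Pkm with LPS and 0.0013 for Pgk1 with high fructose. Library totals alone gave -0.057 for Pkm and -0.0084 for G6pdx with LPS, -0.00051 for Pgk1 with high glucose and -0.0061 for Pgd with high fructose. The fit on 2 groups gave 0.0048 for Cs with LPS. The 3 limma fits gave -0.00010, -0.00010 and -0.00010 for Pgk1 with high glucose, and -0.0031, -0.0031 and -0.0031 for Pgd with high fructose. For Pgd with high fructose DESeq2 gave -0.0027, RLE factors -0.0028 and no filter -0.0048. With each library left out, the LPS changes spanned -0.017 to 0.0044 for Cs and -0.072 to 0.0024 for Ogdh. Those of high glucose spanned -0.078 to 0.025 for Pfkl, -0.10 to 0.11 for Pfkfb3, -0.029 to 0.025 for Pgk1, -0.0088 to 0.032 for Cs and -0.041 to 0.0042 for Idh2. Those of high fructose spanned -0.039 to 0.026 for Pgk1, -0.012 to 0.083 for Slc16a3, -0.016 to 0.011 for Pgd, -0.0043 to 0.027 for Tkt, -0.10 to 0.015 for Pcx, -0.10 to 0.0072 for Idh2 and -0.047 to 0.024 for Ogdh. The differences between the sugars spanned -0.0086 to 0.078 for Pfkp, -0.17 to 0.034 for Pfkfb3, -0.042 to 0.027 for Pgk1, -0.015 to 0.031 for Pkm, -0.058 to 0.016 for Ldha, -0.052 to 0.12 for Pcx, -0.0089 to 0.032 for Cs, -0.081 to 0.025 for Idh2 and -0.016 to 0.056 for Ogdh.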
